A study of Homo sapiens with 24 samples.

Results

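The 35 genes described here encode proteins of the Fanconi pathway, of homologous recombination with its checkpoint kinases, and of mismatch repair. They were taken by symbol from a table of 25161 gene symbols in 25575 rows, each member having exactly 1 row. All 35 were found, and no filter on low values was applied, so every count below is out of 35. The table holds log2 levels from 24 human whole-transcript arrays (Clariom D). The established lines SU-DHL-4, from a diffuse large B-cell lymphoma, and DG-75, from a Burkitt lymphoma, were used. Cells of each line were cultured for 72 h with the solvent DMSO, with 1 µM Entospletinib (Ento, an inhibitor of the kinase SYK), with 0.01 µM AZD5153 (AZD, a bivalent inhibitor of BET bromodomain proteins), or with both agents at those doses (Ento+AZD). Each of the 8 groups had 3 arrays, which the study calls biological triplicates, and each disease is represented by 1 line at 1 dose per agent. The 5 B-cell markers reported lay between the 74.35th and the 99.7th percentile of all rows in the DMSO arrays, and 8 markers of T cells, myeloid, NK and red cells between the 11.3th and the 65.9th.

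The Fanconi pathway repairs DNA strands that are covalently linked to each other. Its core complex, working with the ubiquitin-conjugating enzyme UBE2T, attaches ubiquitin to the paired proteins FANCD2 and FANCI, which then direct nucleases to the lesion. The resulting break is mended by homologous recombination, in which BRCA1, PALB2 and BRCA2 act on single-stranded DNA ahead of the exchange of strands, while ATR and CHEK1 hold the cell cycle. Mismatch repair, in which MSH6 recognises mispaired bases and EXO1 digests the faulty strand, also acts in germinal-centre B cells during antibody diversification. Many of these genes are transcribed mainly in cells that replicate their DNA, and E2F factors are known regulators of that programme.

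Promoter windows of members that fell under Ento+AZD in both lines are printed first, with ATM, which did not fall, for contrast. RefSeq windows of 300 bases (250 before and 50 after a transcript start, GRCh38.p14) were found for 32 of the 35 symbols, 48 windows in all, because several genes have more than 1 start. None was held for FANCI, RAD54B and ATAD5. The first listed window of each gene is shown in the direction of transcription. Capitals mark matches on either strand to an E2F-type word (any of the words TTCCCGC and also TTGGCGC, then also TTCGCGC and finally TTGCCGC), to the CHR word TTTGAA and to the word CCAAT. An E2F-type and a CCAAT match can share bases, and both are then counted.
RAD51AP1 (chr12:4538640-4538939, plus strand): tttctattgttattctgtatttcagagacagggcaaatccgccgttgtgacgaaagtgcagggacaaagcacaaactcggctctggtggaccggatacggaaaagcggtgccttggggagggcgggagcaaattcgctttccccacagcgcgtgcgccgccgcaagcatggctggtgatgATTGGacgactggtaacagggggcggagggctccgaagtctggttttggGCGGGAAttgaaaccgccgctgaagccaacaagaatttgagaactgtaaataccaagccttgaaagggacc
XRCC2 (chr7:152676092-152676391, minus strand): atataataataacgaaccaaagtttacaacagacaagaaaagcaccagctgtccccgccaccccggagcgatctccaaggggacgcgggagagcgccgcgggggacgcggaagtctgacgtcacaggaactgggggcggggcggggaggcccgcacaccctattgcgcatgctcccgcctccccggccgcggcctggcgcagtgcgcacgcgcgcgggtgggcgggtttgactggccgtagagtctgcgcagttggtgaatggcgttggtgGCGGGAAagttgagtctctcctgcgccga
RAD54L (chr1:46247438-46247737, plus strand): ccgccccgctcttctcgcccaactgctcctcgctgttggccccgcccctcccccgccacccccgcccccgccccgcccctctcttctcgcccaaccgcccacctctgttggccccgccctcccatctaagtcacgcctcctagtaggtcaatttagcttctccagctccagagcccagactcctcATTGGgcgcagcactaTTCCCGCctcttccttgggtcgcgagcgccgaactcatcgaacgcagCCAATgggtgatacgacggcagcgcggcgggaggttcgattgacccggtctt
MND1 (chr4:153344438-153344737, plus strand): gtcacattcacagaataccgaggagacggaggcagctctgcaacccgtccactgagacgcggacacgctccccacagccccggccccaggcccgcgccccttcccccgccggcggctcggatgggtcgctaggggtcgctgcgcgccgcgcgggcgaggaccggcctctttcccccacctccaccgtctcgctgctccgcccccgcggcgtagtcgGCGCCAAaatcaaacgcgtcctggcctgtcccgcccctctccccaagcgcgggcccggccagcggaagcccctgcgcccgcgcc
EXO1 (chr1:241847954-241848253, plus strand): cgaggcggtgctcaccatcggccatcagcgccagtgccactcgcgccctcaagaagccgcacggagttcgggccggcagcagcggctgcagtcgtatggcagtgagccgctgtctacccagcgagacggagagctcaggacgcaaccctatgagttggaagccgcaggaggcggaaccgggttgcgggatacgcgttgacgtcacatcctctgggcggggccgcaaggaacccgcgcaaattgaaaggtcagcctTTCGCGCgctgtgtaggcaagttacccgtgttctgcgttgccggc
CHEK1 (chr11:125625979-125626278, plus strand): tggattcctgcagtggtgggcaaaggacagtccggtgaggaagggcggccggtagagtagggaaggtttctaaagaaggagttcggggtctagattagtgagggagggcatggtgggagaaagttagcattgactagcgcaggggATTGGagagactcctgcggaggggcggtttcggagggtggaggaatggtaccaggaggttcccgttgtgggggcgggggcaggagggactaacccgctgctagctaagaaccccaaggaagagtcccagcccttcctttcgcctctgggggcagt
ATM (chr11:108222817-108223116, plus strand): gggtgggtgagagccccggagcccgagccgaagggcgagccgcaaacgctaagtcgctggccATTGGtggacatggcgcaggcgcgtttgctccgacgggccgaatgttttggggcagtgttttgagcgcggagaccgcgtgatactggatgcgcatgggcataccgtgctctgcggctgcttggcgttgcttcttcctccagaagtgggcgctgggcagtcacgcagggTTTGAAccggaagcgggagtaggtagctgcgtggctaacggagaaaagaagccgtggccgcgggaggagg

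In the RAD51AP1, XRCC2, RAD54L, MND1 and EXO1 windows 1 E2F-type word was found each. Its first base lay 21, 49 and 34 bases before the start in RAD51AP1, RAD54L and MND1, and 21 and 5 bases after it in XRCC2 and EXO1. CHEK1 held no E2F-type word in any of its 3 windows, only CCAAT words. ATM held none in either of its 2 windows. At least 1 E2F-type word stood in 27 of the 48 member windows (56.25%), against 13.0% of all 35116 windows in the table. By gene, 20 of 32 members had one in any window (62.5%), against 15.3% of all genes. CCAAT words stood in 25 of the 48 member windows (52.1%), against 34.6% of all windows, and the CHR word in 4 (8.33%), against 15.2%. Of the 22 members with a window that were lower under Ento+AZD over both lines, 15 had an E2F-type word, as did 5 of the other 10. PMS2, whose level did not fall, held 1 E2F-type word and 3 CCAAT words in its first window. These are matches of letters, and binding of any factor was not measured.

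Under Ento+AZD most of the 35 genes were lower than under DMSO, and the reduction was present in both lines. In a fit over both lines, 25 of the 35 fell at an adjusted p under 0.05 (limma, Benjamini-Hochberg over all 25575 rows), against 7.03% of all rows, and 11 of these also passed a log2 change of -1, against 0.813% of all rows. No member was called higher. The median change of the 35 was -0.83 on the log2 scale, and that of all rows was -0.07. The exonuclease gene EXO1 fell furthest, to 30.6% of its DMSO level, followed by MND1 (33.1%), FANCI (34.5%) and RAD51AP1 (36.7%). That order rests on 1 array: without SU-DHL-4 Ento+AZD replicate 2, EXO1 stood at 37.8%, behind MND1 (34.1%) and FANCI (36.7%). "Called" below means an adjusted p under 0.05 together with a log2 change beyond 1 in size, the limits used by the study. In RNA pooled from many cells, fewer cells that express a gene and less of its RNA per cell cannot be told apart.

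The count of 11 ranged from 8 to 15 when any 1 array or any 1 replicate number was left out. Within single lines the counts were far less stable. In SU-DHL-4, 12 members were called lower under Ento+AZD, against 1.09% of all rows, and 16 passed without the fold minimum, against 2.06%. In DG-75, 12 were called lower, against 0.708% of all rows, and 17 passed without the fold minimum, against 1.87%. When single arrays were dropped, the SU-DHL-4 count became 0 (DMSO replicate 2), 3 (DMSO replicate 3), 1 (Ento+AZD replicate 2) and 5 (Ento+AZD replicate 3). It was also 0 in a fit that had no term for the replicate number. In DG-75 it became 0 when replicate 1 of DMSO or of Ento+AZD was dropped, 5 when DMSO replicate 2 was, and 3 when DMSO replicate 3 or Ento+AZD replicate 2 was. In these fits fewer arrays stand behind the same 25575 tests. Levels of 22 members lay lower in all 3 Ento+AZD arrays than in any DMSO array of SU-DHL-4, where 16.0% of all rows did so. In DG-75 this held for 27 members, against 14.0% of all rows.

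**Figure D1:**
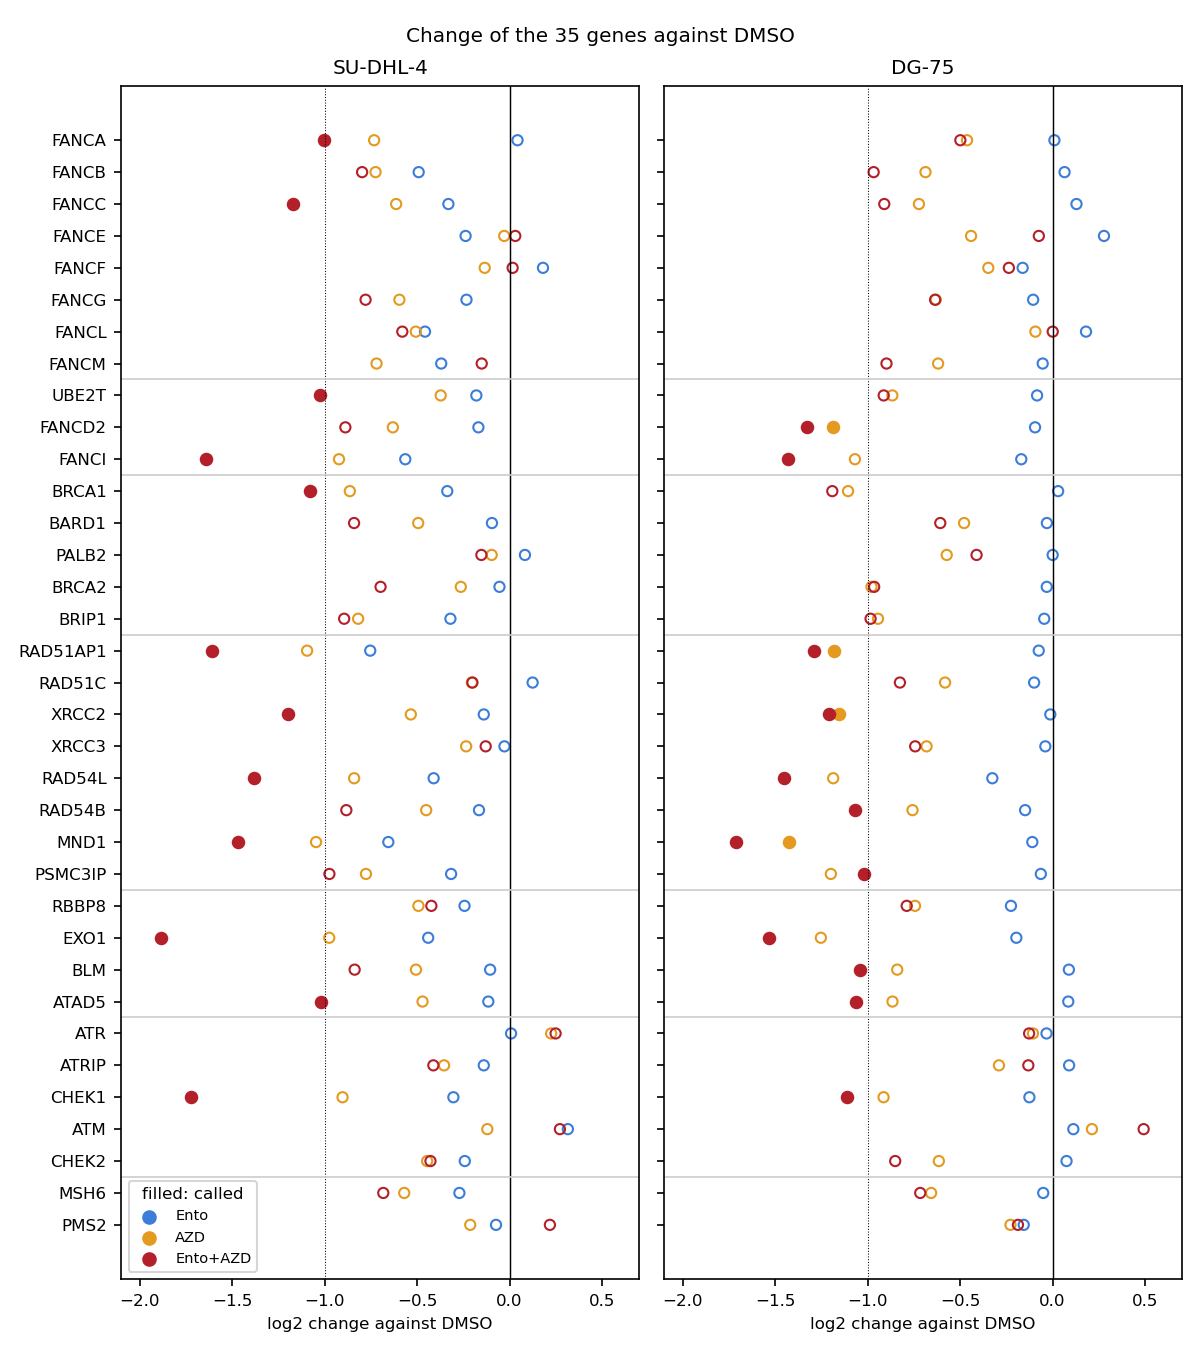
Log2 change against DMSO (horizontal axis) of each of the 35 genes (vertical axis, grey lines separating roles) under Ento, AZD and Ento+AZD, with SU-DHL-4 on the left and DG-75 on the right. Filled points were called, and the dotted line marks a log2 change of -1. Ento+AZD called 12 genes in each line, AZD called 4 in DG-75 only, and Ento called none.

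The Fanconi core complex, with 8 genes here, is the ubiquitin ligase that acts on FANCD2 and FANCI. Under Ento+AZD over both lines 4 of the 8 fell without a fold minimum, against 7.03% of all rows. They were FANCA, FANCB, FANCC and FANCG. FANCC was the only one of the 8 past the fold minimum, at -1.04, where 0.813% of all rows were called lower. In SU-DHL-4, FANCC read 5.63, 6.13 and 6.18 under DMSO, 5.80, 5.26 and 5.89 under Ento, 5.27, 5.17 and 5.67 under AZD, and 4.80, 4.09 and 5.54 under Ento+AZD. In DG-75, FANCC read 6.84, 6.47 and 6.99 under DMSO, 7.37, 6.87 and 6.46 under Ento, 5.74, 6.15 and 6.25 under AZD, and 5.89, 5.96 and 5.73 under Ento+AZD. The DMSO and Ento+AZD groups of FANCC did not overlap in either line, and the AZD arrays overlapped DMSO in SU-DHL-4 but not in DG-75. FANCC changed by -1.17 in SU-DHL-4 (SE 0.23, adjusted p = 0.0223) and by -0.91 in DG-75 (SE 0.24, adjusted p = 0.0731), and was called in SU-DHL-4 only.

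FANCA, a structural subunit of the core, changed by -0.75 over both lines. In SU-DHL-4, FANCA read 6.99, 7.37 and 7.78 under DMSO, 7.49, 6.75 and 8.02 under Ento, 6.55, 6.29 and 7.09 under AZD, and 6.45, 5.76 and 6.90 under Ento+AZD. In DG-75, FANCA read 8.25, 8.76 and 7.98 under DMSO, 8.22, 8.60 and 8.21 under Ento, 7.80, 7.88 and 7.92 under AZD, and 7.66, 7.94 and 7.90 under Ento+AZD. Its Ento+AZD arrays lay below the DMSO arrays in both lines, by a margin far smaller than the DMSO spread in each. FANCA changed by -1.01 in SU-DHL-4 (SE 0.20, adjusted p = 0.0217) and by -0.50 in DG-75 (SE 0.16, adjusted p = 0.149), and was called in SU-DHL-4 only. FANCB and FANCG, further subunits, changed by -0.88 (adjusted p = 0.0107) and -0.71 (adjusted p = 0.0148). The other 4 did not pass. FANCL, which carries the ligase activity, changed by -0.29, and FANCM, the translocase that anchors the complex to DNA, by -0.52. FANCE and FANCF, adaptor subunits, changed by -0.02 and -0.11. FANCE and FANCM were low in SU-DHL-4, with DMSO means of 4.32 and 4.49 (percentiles 39.1 and 41.6 of all rows). A fall of these genes could be missed there.

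The 3 genes at the ubiquitination step, UBE2T and the FANCD2 and FANCI pair, all fell over both lines, against 7.03% of all rows. FANCI changed by -1.54 (SE 0.21, limma adjusted p = 0.000101). In SU-DHL-4, FANCI read 7.81, 7.84 and 8.62 under DMSO, 8.02, 6.24 and 8.31 under Ento, 6.95, 6.97 and 7.58 under AZD, and 6.88, 5.47 and 6.98 under Ento+AZD. In DG-75, FANCI read 8.44, 8.66 and 8.42 under DMSO, 8.45, 8.58 and 7.98 under Ento, 6.93, 7.80 and 7.58 under AZD, and 6.57, 7.03 and 7.62 under Ento+AZD. In both lines the Ento+AZD arrays lay below every DMSO array, whereas the Ento arrays overlapped the DMSO arrays. FANCI changed by -1.64 in SU-DHL-4 (SE 0.31, adjusted p = 0.0171) and by -1.43 in DG-75 (SE 0.25, adjusted p = 0.0215), and was called in both lines.

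FANCD2, the partner of FANCI, changed by -1.11 (SE 0.17, limma adjusted p = 0.000197). This is RNA, and ubiquitin on the FANCD2 protein was not measured on the arrays. In SU-DHL-4, FANCD2 read 7.77, 8.10 and 8.62 under DMSO, 8.23, 7.28 and 8.47 under Ento, 7.37, 7.38 and 7.85 under AZD, and 7.35, 6.79 and 7.69 under Ento+AZD. In DG-75, FANCD2 read 8.88, 8.89 and 8.62 under DMSO, 8.64, 8.88 and 8.58 under Ento, 7.05, 7.85 and 7.92 under AZD, and 7.18, 7.42 and 7.80 under Ento+AZD. In DG-75 the AZD and Ento+AZD arrays lay well below the DMSO arrays, and in SU-DHL-4 the highest Ento+AZD array lay just under the lowest DMSO array. FANCD2 changed by -0.89 in SU-DHL-4 (SE 0.21, adjusted p = 0.0466) and by -1.33 in DG-75 (SE 0.21, adjusted p = 0.0188), and was called in DG-75 only. The row of FANCD2OS, a gene on the opposite strand, correlated with FANCD2 over the 24 arrays at r = 0.60, and the strand handling of the probes is not given in the sources used here.

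UBE2T, the conjugating enzyme, changed by -0.97 over both lines (adjusted p = 0.000141). In SU-DHL-4, UBE2T read 8.86, 8.71 and 9.24 under DMSO, 9.01, 8.04 and 9.22 under Ento, 8.80, 8.11 and 8.79 under AZD, and 8.17, 7.20 and 8.38 under Ento+AZD. In DG-75, UBE2T read 9.40, 9.64 and 9.30 under DMSO, 9.33, 9.38 and 9.37 under Ento, 8.11, 8.76 and 8.86 under AZD, and 8.35, 8.84 and 8.40 under Ento+AZD. The DMSO and Ento+AZD groups stood apart in both lines, and the Ento arrays overlapped DMSO in both. UBE2T changed by -1.02 in SU-DHL-4 (SE 0.18, adjusted p = 0.0121) and by -0.91 in DG-75 (SE 0.17, adjusted p = 0.0263), and was called in SU-DHL-4 only.

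Of the 5 BRCA mediators, 4 fell over both lines under Ento+AZD, against 7.03% of all rows. PALB2, the bridge between BRCA1 and BRCA2, did not pass, at -0.28 (limma adjusted p = 0.272). BRCA1, which promotes resection and recruits the others, changed by -1.14 (SE 0.22, adjusted p = 0.00201). In SU-DHL-4, BRCA1 read 7.13, 7.27 and 7.79 under DMSO, 7.35, 6.39 and 7.44 under Ento, 6.05, 6.58 and 6.97 under AZD, and 6.54, 5.68 and 6.74 under Ento+AZD. In DG-75, BRCA1 read 7.88, 7.39 and 8.05 under DMSO, 7.98, 8.02 and 7.41 under Ento, 5.82, 7.16 and 7.02 under AZD, and 6.37, 6.29 and 7.08 under Ento+AZD. All AZD and all Ento+AZD arrays lay below the DMSO arrays of their line, with a wide spread in DG-75 under AZD. BRCA1 changed by -1.08 in SU-DHL-4 (SE 0.25, adjusted p = 0.0412) and by -1.19 in DG-75 (SE 0.33, adjusted p = 0.0971), and was called in SU-DHL-4 only. BARD1, the ring-finger partner of BRCA1, changed by -0.72, with the smallest standard error of the 35 genes (0.09). BRCA2, which binds single-stranded DNA ends, changed by -0.83, and the helicase BRIP1 by -0.94.

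Of the 8 strand exchange factors, 7 fell under Ento+AZD over both lines, against 7.03% of all rows. Past the fold minimum were 4 of them, against 0.813% of all rows, and the median of the group was -1.10. XRCC3, which forms a complex with RAD51C, was the exception at -0.44 (adjusted p = 0.128). RAD51AP1, which helps to pair homologous strands, changed by -1.45 (SE 0.17, adjusted p = 3.4e-05), the smallest adjusted p of the 35. In SU-DHL-4, RAD51AP1 read 8.70, 8.33 and 9.31 under DMSO, 8.55, 6.83 and 8.70 under Ento, 7.74, 7.26 and 8.04 under AZD, and 7.45, 6.32 and 7.74 under Ento+AZD. In DG-75, RAD51AP1 read 8.47, 8.61 and 8.13 under DMSO, 8.32, 8.61 and 8.05 under Ento, 6.78, 7.62 and 7.28 under AZD, and 6.87, 7.21 and 7.26 under Ento+AZD. Every AZD and every Ento+AZD array lay below the DMSO arrays of the same line, and replicate 2 was the lowest of the Ento arrays in SU-DHL-4. RAD51AP1 changed by -1.61 in SU-DHL-4 (SE 0.23, adjusted p = 0.00567) and by -1.29 in DG-75 (SE 0.19, adjusted p = 0.0162), and was called in both lines. RAD51AP1 kept its SU-DHL-4 call in 5 of the 6 fits that left out 1 DMSO or Ento+AZD array, more than any other member.

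MND1 and PSMC3IP form a complex that is best known from meiosis and stimulates strand exchange. MND1 changed by -1.59 over both lines (SE 0.19, adjusted p = 3.76e-05). In SU-DHL-4, MND1 read 8.12, 7.96 and 8.64 under DMSO, 7.97, 6.64 and 8.14 under Ento, 7.17, 6.80 and 7.61 under AZD, and 7.30, 5.87 and 7.14 under Ento+AZD. In DG-75, MND1 read 8.62, 8.71 and 8.56 under DMSO, 8.46, 8.82 and 8.29 under Ento, 6.65, 7.57 and 7.40 under AZD, and 6.40, 6.91 and 7.45 under Ento+AZD. As for RAD51AP1, no AZD or Ento+AZD array reached the DMSO range in either line. MND1 changed by -1.47 in SU-DHL-4 (SE 0.23, adjusted p = 0.00779) and by -1.71 in DG-75 (SE 0.23, adjusted p = 0.0162), and was called in both lines. Its DG-75 call held in 4 of 6 fits with 1 array left out, more than for any other member there.

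PSMC3IP changed by -0.997 (adjusted p = 0.00254), just short of the fold minimum over both lines. In SU-DHL-4, PSMC3IP read 5.65, 5.52 and 6.21 under DMSO, 5.92, 4.45 and 6.07 under Ento, 4.67, 5.15 and 5.24 under AZD, and 4.97, 4.16 and 5.33 under Ento+AZD. In DG-75, PSMC3IP read 6.86, 6.78 and 6.85 under DMSO, 6.81, 6.96 and 6.53 under Ento, 5.13, 6.05 and 5.71 under AZD, and 5.48, 5.66 and 6.29 under Ento+AZD. Neither the AZD nor the Ento+AZD arrays reached the DMSO range in either line. PSMC3IP changed by -0.97 in SU-DHL-4 (SE 0.28, adjusted p = 0.104) and by -1.02 in DG-75 (SE 0.23, adjusted p = 0.0475), and was called in DG-75 only.

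XRCC2 and RAD51C are subunits of a complex needed for recombination. XRCC2 changed by -1.20 over both lines (SE 0.17, adjusted p = 0.000127). In SU-DHL-4, XRCC2 read 7.91, 8.44 and 8.77 under DMSO, 8.31, 7.61 and 8.78 under Ento, 7.66, 7.61 and 8.25 under AZD, and 7.45, 6.38 and 7.70 under Ento+AZD. In DG-75, XRCC2 read 9.43, 9.31 and 9.28 under DMSO, 9.39, 9.35 and 9.24 under Ento, 7.88, 8.42 and 8.26 under AZD, and 7.75, 8.42 and 8.22 under Ento+AZD. The DG-75 arrays formed a high set under DMSO and Ento and a low set under AZD and Ento+AZD, while in SU-DHL-4 the AZD arrays overlapped the DMSO arrays. XRCC2 changed by -1.20 in SU-DHL-4 (SE 0.24, adjusted p = 0.0231) and by -1.21 in DG-75 (SE 0.17, adjusted p = 0.0162), and was called in both lines. RAD51C changed by -0.51 over both lines, close to the threshold at an adjusted p of 0.0495.

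RAD54L and RAD54B are DNA translocases that drive strand exchange. RAD54L changed by -1.42 over both lines (SE 0.21, adjusted p = 0.000175). In SU-DHL-4, RAD54L read 6.07, 6.67 and 7.02 under DMSO, 6.40, 5.36 and 6.77 under Ento, 5.52, 5.67 and 6.05 under AZD, and 5.21, 4.65 and 5.74 under Ento+AZD. In DG-75, RAD54L read 6.96, 6.92 and 6.64 under DMSO, 6.70, 7.10 and 5.74 under Ento, 5.10, 6.08 and 5.78 under AZD, and 5.47, 5.07 and 5.63 under Ento+AZD. Its Ento+AZD arrays lay below the DMSO arrays in both lines, and the 3 Ento arrays of DG-75 were widely spread. RAD54L changed by -1.38 in SU-DHL-4 (SE 0.25, adjusted p = 0.0149) and by -1.45 in DG-75 (SE 0.32, adjusted p = 0.0407), and was called in both lines.

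RAD54B changed by -0.97 (adjusted p = 0.000183). In SU-DHL-4, RAD54B read 6.43, 6.49 and 6.78 under DMSO, 6.74, 5.70 and 6.75 under Ento, 6.04, 5.88 and 6.43 under AZD, and 6.08, 5.23 and 5.74 under Ento+AZD. In DG-75, RAD54B read 7.35, 7.33 and 7.40 under DMSO, 7.31, 7.22 and 7.12 under Ento, 6.06, 6.87 and 6.87 under AZD, and 5.997, 6.28 and 6.61 under Ento+AZD. The DMSO and Ento+AZD groups were separate in both lines, more widely in DG-75. RAD54B changed by -0.88 in SU-DHL-4 (SE 0.21, adjusted p = 0.0466) and by -1.07 in DG-75 (SE 0.20, adjusted p = 0.0244), and was called in DG-75 only.

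**Figure D2:**
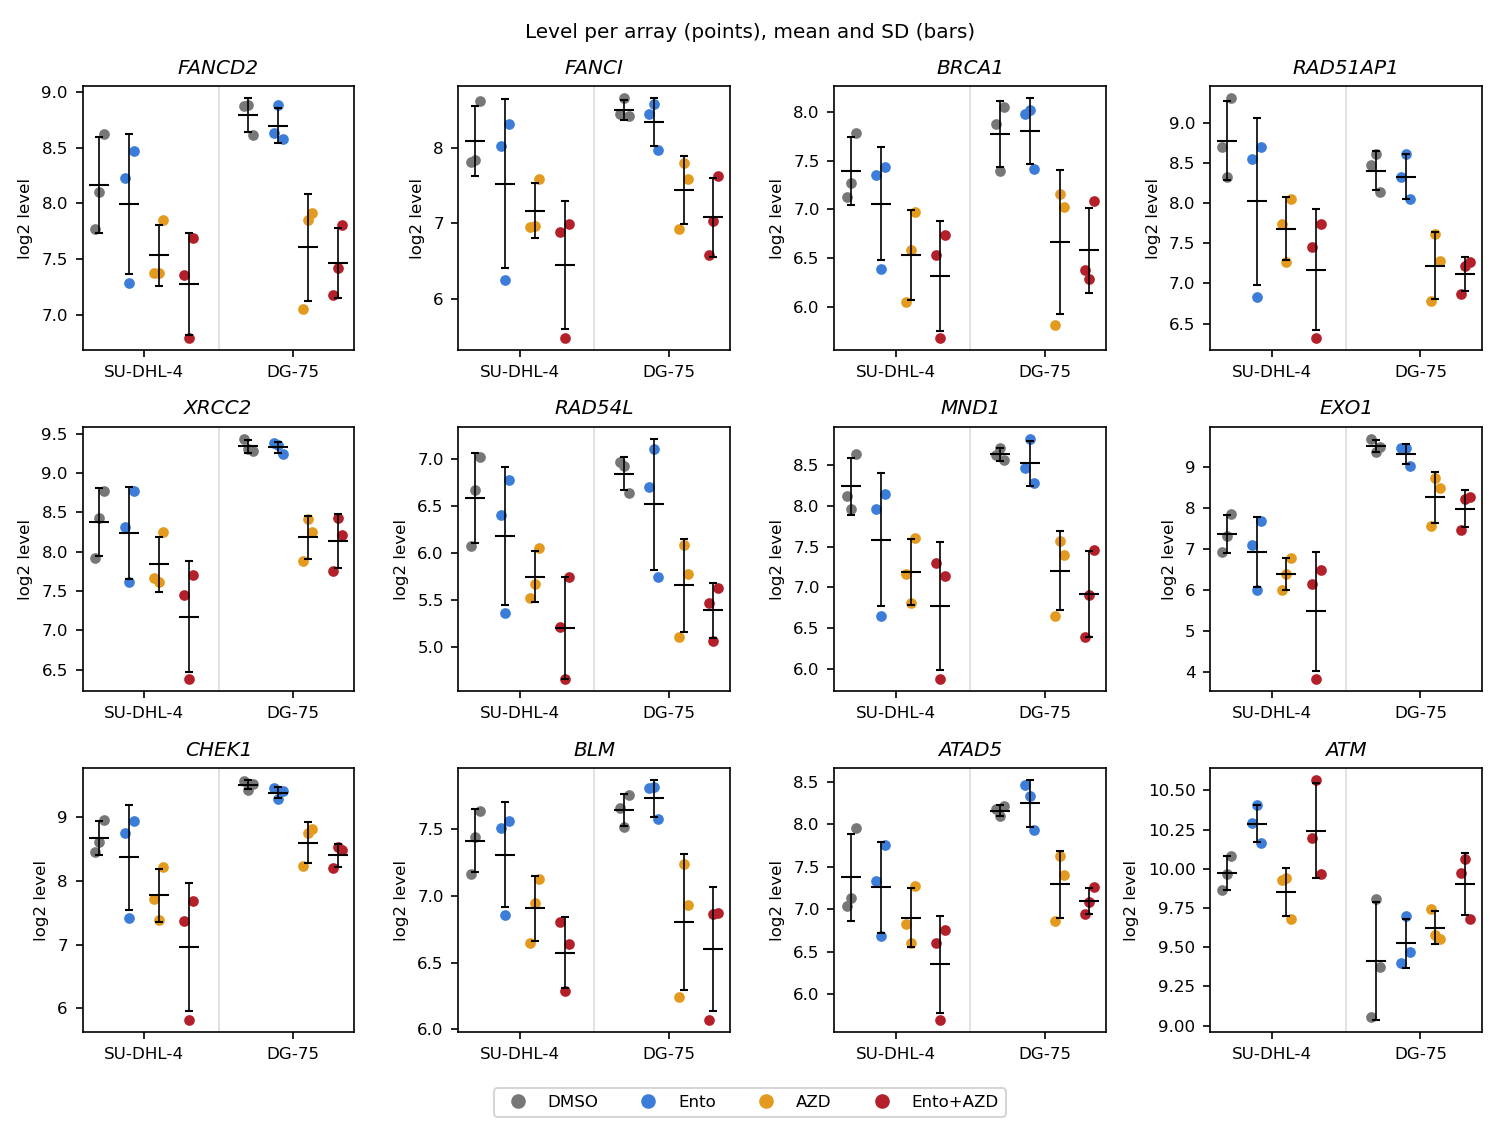
Log2 level (vertical axes, one scale per gene) of 12 of the genes in each array, by line (horizontal axes) and treatment (colours). Points are arrays, black dashes are means and bars are SD over 3 arrays; for EXO1 the lowest array is SU-DHL-4 Ento+AZD replicate 2 at 3.81, and ATM is the gene whose level did not fall.

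All 4 genes of end resection, crossover control and fork recovery fell over both lines, against 7.03% of all rows. EXO1 changed by -1.71 (SE 0.27, adjusted p = 0.000311). In SU-DHL-4, EXO1 read 6.91, 7.32 and 7.85 under DMSO, 7.08, 6.002 and 7.68 under Ento, 6.01, 6.38 and 6.77 under AZD, and 6.15, 3.81 and 6.47 under Ento+AZD. In DG-75, EXO1 read 9.68, 9.37 and 9.48 under DMSO, 9.46, 9.46 and 9.03 under Ento, 7.56, 8.73 and 8.49 under AZD, and 7.46, 8.23 and 8.25 under Ento+AZD. No AZD or Ento+AZD array reached the DMSO range in either line, and SU-DHL-4 Ento+AZD replicate 2 stood far below the other arrays. EXO1 changed by -1.88 in SU-DHL-4 (SE 0.42, adjusted p = 0.0363) and by -1.53 in DG-75 (SE 0.27, adjusted p = 0.0215), and was called in both lines. Without that array the SU-DHL-4 change of EXO1 was -1.21, with an adjusted p of 0.124, and the call was lost.

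ATAD5, which unloads the sliding clamp PCNA after replication, changed by -1.04 over both lines (SE 0.15, adjusted p = 0.00012). In SU-DHL-4, ATAD5 read 7.04, 7.13 and 7.96 under DMSO, 7.33, 6.69 and 7.76 under Ento, 6.83, 6.61 and 7.28 under AZD, and 6.61, 5.70 and 6.76 under Ento+AZD. In DG-75, ATAD5 read 8.18, 8.09 and 8.21 under DMSO, 8.47, 8.33 and 7.94 under Ento, 6.86, 7.62 and 7.40 under AZD, and 6.95, 7.08 and 7.26 under Ento+AZD. Ento+AZD arrays lay below DMSO arrays in both lines, and AZD arrays did so only in DG-75. ATAD5 changed by -1.02 in SU-DHL-4 (SE 0.19, adjusted p = 0.0149) and by -1.06 in DG-75 (SE 0.20, adjusted p = 0.0258), and was called in both lines.

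BLM, the helicase that dissolves crossed DNA strands, changed by -0.94 over both lines (adjusted p = 0.000566). In SU-DHL-4, BLM read 7.16, 7.44 and 7.64 under DMSO, 7.51, 6.85 and 7.56 under Ento, 6.65, 6.95 and 7.12 under AZD, and 6.80, 6.29 and 6.64 under Ento+AZD. In DG-75, BLM read 7.66, 7.52 and 7.76 under DMSO, 7.81, 7.82 and 7.57 under Ento, 6.24, 7.24 and 6.93 under AZD, and 6.07, 6.86 and 6.87 under Ento+AZD. All AZD and Ento+AZD arrays lay below the DMSO arrays of their line. BLM changed by -0.84 in SU-DHL-4 (SE 0.20, adjusted p = 0.0462) and by -1.04 in DG-75 (SE 0.23, adjusted p = 0.0393), and was called in DG-75 only. RBBP8, which starts resection, changed by -0.61 over both lines (adjusted p = 0.0485), and its DMSO and Ento+AZD groups overlapped in each line.

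The 5 genes of the checkpoint kinases and of the ATR partner ATRIP divided. CHEK1, the kinase that ATR activates at stalled forks, changed by -1.42 over both lines (SE 0.18, adjusted p = 5.39e-05). In SU-DHL-4, CHEK1 read 8.45, 8.61 and 8.96 under DMSO, 8.75, 7.43 and 8.94 under Ento, 7.71, 7.39 and 8.21 under AZD, and 7.37, 5.81 and 7.69 under Ento+AZD. In DG-75, CHEK1 read 9.58, 9.44 and 9.53 under DMSO, 9.46, 9.29 and 9.42 under Ento, 8.24, 8.76 and 8.81 under AZD, and 8.20, 8.53 and 8.49 under Ento+AZD. Its AZD and Ento+AZD arrays lay below the DMSO arrays in both lines. CHEK1 changed by -1.72 in SU-DHL-4 (SE 0.28, adjusted p = 0.00982) and by -1.11 in DG-75 (SE 0.16, adjusted p = 0.0162), and was called in both lines. CHEK2, the kinase downstream of ATM, changed by -0.64 over both lines (adjusted p = 0.038), but a CHEK2P2 pseudogene row with similar sequence followed it across the 24 arrays (r = 0.64), so its signal is uncertain.

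ATR, its partner ATRIP and ATM did not pass. ATR changed by 0.06 and ATRIP by -0.27 over both lines. ATM, the kinase that answers double-strand breaks, was the member with the largest positive change, 0.38 (SE 0.12, adjusted p = 0.0575). In SU-DHL-4, ATM read 9.86, 9.97 and 10.08 under DMSO, 10.29, 10.40 and 10.17 under Ento, 9.93, 9.94 and 9.68 under AZD, and 10.20, 10.57 and 9.97 under Ento+AZD. In DG-75, ATM read 9.05, 9.81 and 9.38 under DMSO, 9.40, 9.70 and 9.47 under Ento, 9.75, 9.58 and 9.55 under AZD, and 9.97, 10.06 and 9.68 under Ento+AZD. The Ento+AZD and DMSO arrays of ATM overlapped in both lines.

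Of the 2 mismatch repair genes, MSH6, a subunit of the mismatch recognition complex, fell over both lines, by 0.70 on the log2 scale (SE 0.14, adjusted p = 0.00219). In SU-DHL-4, MSH6 read 8.64, 8.64 and 9.25 under DMSO, 8.70, 8.14 and 8.86 under Ento, 7.94, 8.34 and 8.53 under AZD, and 8.24, 7.89 and 8.34 under Ento+AZD. In DG-75, MSH6 read 8.70, 8.73 and 8.35 under DMSO, 8.74, 8.87 and 8.01 under Ento, 7.72, 8.19 and 7.90 under AZD, and 7.93, 7.68 and 8.02 under Ento+AZD. All AZD and Ento+AZD arrays of MSH6 lay below the DMSO arrays of their line, but it was called in neither. PMS2, the endonuclease subunit that acts after recognition, changed by 0.02 (adjusted p = 0.974). Its 8 related rows (PMS2P1, PMS2P2, PMS2P3, PMS2P4, PMS2P5, PMS2P7, PMS2P9 and PMS2CL) correlated with it over the 24 arrays at r between 0.52 and 0.80, so its row is uncertain too.

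The single agents were compared with the same DMSO arrays as the combination, so the comparisons are not independent of each other. Ento called 0 members in SU-DHL-4 (0.0508% of all rows), 0 in DG-75 (0.00391%) and 0 over both lines (0.00782%) by limma. At an unadjusted p under 0.05 there were 3, 0 and 1 members, against 8.59%, 2.81% and 6.36% of all rows. The median change of the 35 was -0.23 (SU-DHL-4) and -0.05 (DG-75), and with 1 array left out the former ran from -0.37 to -0.04. No SU-DHL-4 member and 1 DG-75 member lay below all DMSO arrays, against 9.33% and 3.56% of all rows. In SU-DHL-4, 2 members, ATM and FANCF, lay above all DMSO arrays, and the share of all rows that did so was not counted. SU-DHL-4 Ento replicate 2 stood apart, with a mean over the 35 genes of 6.55, while Ento replicates 1 and 3 had 7.33 and 7.52.

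AZD alone also lowered members of the list. Over both lines 20 members fell under AZD without a fold minimum, against 4.29% of all rows, and 4 passed it, RAD51AP1, RAD54L, MND1 and EXO1, against 0.250%. The changes were -1.14, -1.01, -1.24 and -1.11 in that order. All 4 calls were lost without replicate 1 or without replicate 3 of every group, and the count rose to 9 without SU-DHL-4 AZD replicate 2. In DG-75 the called members were FANCD2, RAD51AP1, XRCC2 and MND1, against 0.164% of all rows, with adjusted p between 0.0471 and 0.0495. Leaving out any of the 6 DMSO and AZD arrays took that count to 0, leaving out Ento replicate 1 or 2 or Ento+AZD replicate 1 or 2 did so too, and leaving out Ento replicate 3 raised it to 8. In SU-DHL-4 no member was called under AZD (0.180% of all rows), although 23 of 35 had an unadjusted p under 0.05, against 11.5% of all rows, and the count was 2 without AZD replicate 2 and 1 without Ento replicate 2. All 3 AZD arrays lay below all DMSO arrays for 14 members in SU-DHL-4, against 12.9% of rows, and for 28 in DG-75, against 14.6%. The median changes were -0.51 and -0.72, with 34 of 35 negative in each line (after quantile normalization, 31 for SU-DHL-4 but 33 for DG-75).

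Direct comparison of Ento+AZD with each agent asked what the second agent added. Against AZD, 0 members were called in SU-DHL-4 (0.0274% of all rows) and 0 in DG-75, where limma called 0% of all rows. Unadjusted p was under 0.05 for 12 members (9 lower, with FANCM, PMS2 and ATM higher) and for 0 members, against 7.03% and 4.03% of all rows. The median difference was -0.20 in SU-DHL-4, with EXO1 lowest at -0.91 and FANCM highest at 0.57, and -0.06 in DG-75, with FANCI lowest at -0.36. FANCM was low in SU-DHL-4, at 4.49 under DMSO (percentile 41.6 of all rows). Its AZD arrays there read 2.87, 4.18 and 4.27, so the 0.57 leans on 1 array. Against Ento, 8 members were called lower in DG-75 (0.598% of all rows), FANCD2, FANCI, RAD51AP1, XRCC2, MND1, EXO1, BLM and ATAD5. That count became 0 without Ento replicate 1 or 2 or Ento+AZD replicate 1 or 2, 5 without DMSO replicate 3 or AZD replicate 3, and 19 without Ento replicate 3. In SU-DHL-4 no member was called against Ento (0.0821% of all rows), with 19 at an unadjusted p under 0.05 against 9.67% of all rows, and 2 called without DMSO replicate 2.

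The members that moved under Ento+AZD were largely shared between the lines. Of the 12 called in each, 8 were called in both, which is 66.7% of each list: FANCI, RAD51AP1, XRCC2, RAD54L, MND1, EXO1, ATAD5 and CHEK1. Over all rows, 80 were shared among the 278 SU-DHL-4 and 181 DG-75 rows called lower. Changes of the 35 members in the lines, which share no arrays, correlated at Pearson r = 0.81 and Spearman rho = 0.84, against Pearson r = 0.43 over all rows. Members vary together across arrays and are not independent points, so no p is given. FANCA, FANCC, UBE2T and BRCA1 were called in SU-DHL-4 alone, and FANCD2, RAD54B, PSMC3IP and BLM in DG-75 alone. The difference between lines was itself tested and passed for 0 members under Ento (0.00782% of all rows), 0 under AZD (0%) and 0 under Ento+AZD (0.0352%) by limma, with 2, 1 and 0 members at an unadjusted p under 0.05, against 4.43%, 6.16% and 6.51% of all rows. For Ento+AZD the estimated difference, SU-DHL-4 minus DG-75, ran from -0.61 for CHEK1 to 0.75 for FANCM. The arrays thus do not show that these 2 genes respond alike. FANCM was low in both lines, with DMSO means at percentiles 41.6 (SU-DHL-4) and 44.8 (DG-75) of all rows, so its value is uncertain.

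**Figure D3:**
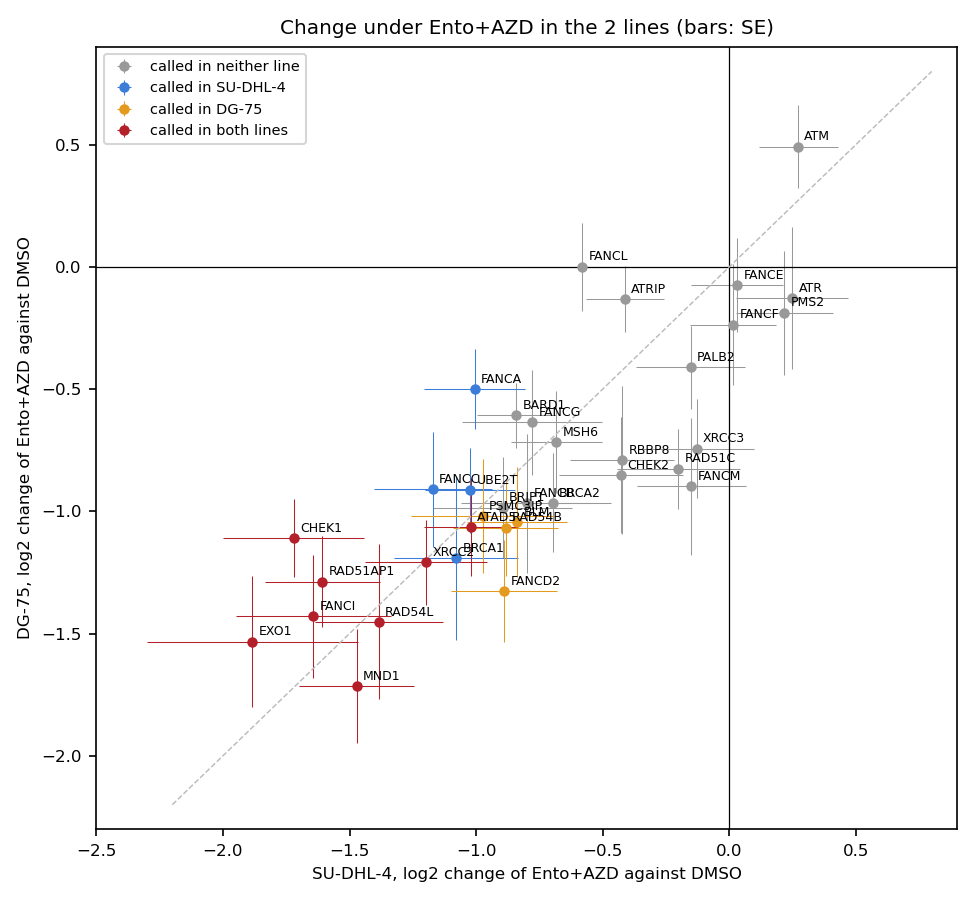
Log2 change of Ento+AZD against DMSO for SU-DHL-4 (horizontal axis) against DG-75 (vertical axis) for the 35 genes, with bars for SE and a dashed line of equal change. The 8 genes called in both lines lie at the lower left, and ATM lies at the upper right with a positive change in both.

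Resting levels differed between the lines for a few members. Under DMSO, 4 genes were lower in SU-DHL-4 than DG-75 by that call, where 4.11% of all rows were called lower. EXO1 differed by -2.15 (SE 0.49, adjusted p = 0.00265), FANCE by -1.50 (adjusted p = 4.89e-05), RAD51C by -1.47 (adjusted p = 9.43e-05) and PSMC3IP by -1.04 (adjusted p = 0.04). FANCE read 4.23, 4.01 and 4.71 in the DMSO arrays of SU-DHL-4 and 5.79, 5.95 and 5.71 in those of DG-75. RAD51C read 7.69, 7.65 and 7.78 there, while DG-75 gave 9.43, 8.94 and 9.17. Neither pair of groups overlapped. FANCE was low in SU-DHL-4, with its DMSO mean at percentile 39.1 of all rows, so the size of its difference is uncertain. Without a fold minimum 7 members were lower in SU-DHL-4, against 9.84% of all rows, and 3 were higher, against 7.78%, the higher ones being FANCF (0.88), ATRIP (0.47) and ATM (0.56). The count of 4 became 7 without SU-DHL-4 DMSO replicate 3 and 2 without replicate 1 of every group.

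**Figure D4:**
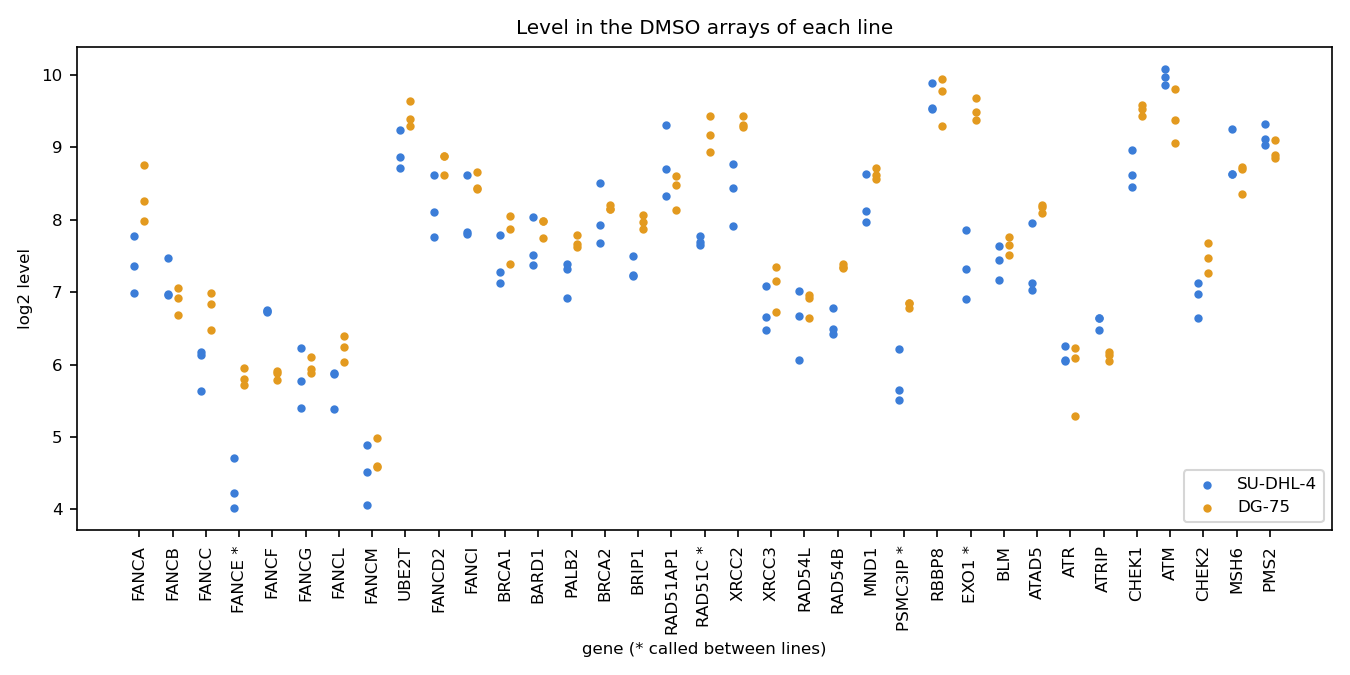
Log2 level (vertical axis) of each of the 35 genes (horizontal axis) in the 3 DMSO arrays of SU-DHL-4 and of DG-75. Asterisks mark the 4 genes called between the lines; levels can be compared between lines for a gene but not between genes, whose probes differ.

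Other lists of DNA-repair genes gave the setting, to be read against the 7.03% of all rows that fell over both lines without a fold minimum and the 0.813% called lower. Among 35 further Fanconi and recombination genes with a row, 10 fell under Ento+AZD over both lines without a fold minimum and 1 was called, POLQ, the polymerase of theta-mediated end joining, at -1.21. The list's median was -0.21. Of 19 checkpoint mediators 13 fell and 4 were called, CLSPN (-1.15), RPA3 (-1.07), WEE1 (-1.03) and CDC25A (-1.59), with a median of -0.47. Of 7 other mismatch repair genes, the clamp PCNA was called (-1.02), the ligase LIG1 fell, MSH4 rose, and the median was -0.31. Of 9 end joining genes XRCC4 alone fell, a share near that of all rows, and of 19 excision repair genes DDB2, ERCC5, NEIL3 and LIG3 fell and XPC rose, none past the fold minimum, with medians of -0.09 and -0.06. Of 21 replication fork genes, which include the MCM, GINS and ORC subunits, 20 fell and the median was -0.95. The 10 called were POLE2, GINS1, GINS2, MCM10, CDC45, PRIM1, ORC1, MCM6, CDT1 and CDC6, from -1.84 for POLE2 to -1.07 for CDC6. Under DMSO the crosslink nuclease gene FAN1 of the first list differed by -4.10 on the log2 scale between SU-DHL-4 and DG-75, and was lower in SU-DHL-4.

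The mean levels of the 35 genes and of the replication fork genes were both lower under Ento+AZD than under DMSO. In SU-DHL-4 the 35 genes averaged 7.13, 7.26 and 7.66 in the DMSO arrays and 6.75, 6.07 and 6.98 in the Ento+AZD arrays. Replication fork genes averaged 7.94, 8.16 and 8.58 in those DMSO arrays and 7.32, 6.36 and 7.64 in those Ento+AZD arrays. In DG-75 the 35 genes averaged 7.80, 7.70 and 7.76 under DMSO and 6.79, 6.90 and 7.14 under Ento+AZD. For both lists the groups were apart in both lines, and SU-DHL-4 Ento replicate 2 and Ento+AZD replicate 2 were the lowest arrays of their groups. The share of replicating cells in these cultures was not measured on the arrays, and its part in the changes was not tested. The B-cell markers averaged 8.89 to 9.19 in the DMSO arrays of DG-75 and 9.38 to 9.80 under Ento+AZD, with AZD alone at 9.39 to 9.56. In SU-DHL-4 the marker means overlapped, at 10.46 to 10.88 under DMSO and 10.68 to 10.92 under Ento+AZD. In the fit over both lines, CD79B and CD22 rose without a fold minimum. CD79B was also called higher in DG-75 alone, at 1.03 (adjusted p = 0.0227), whereas none of the 8 markers of other blood cells passed over both lines without a fold minimum.

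**Figure D5:**
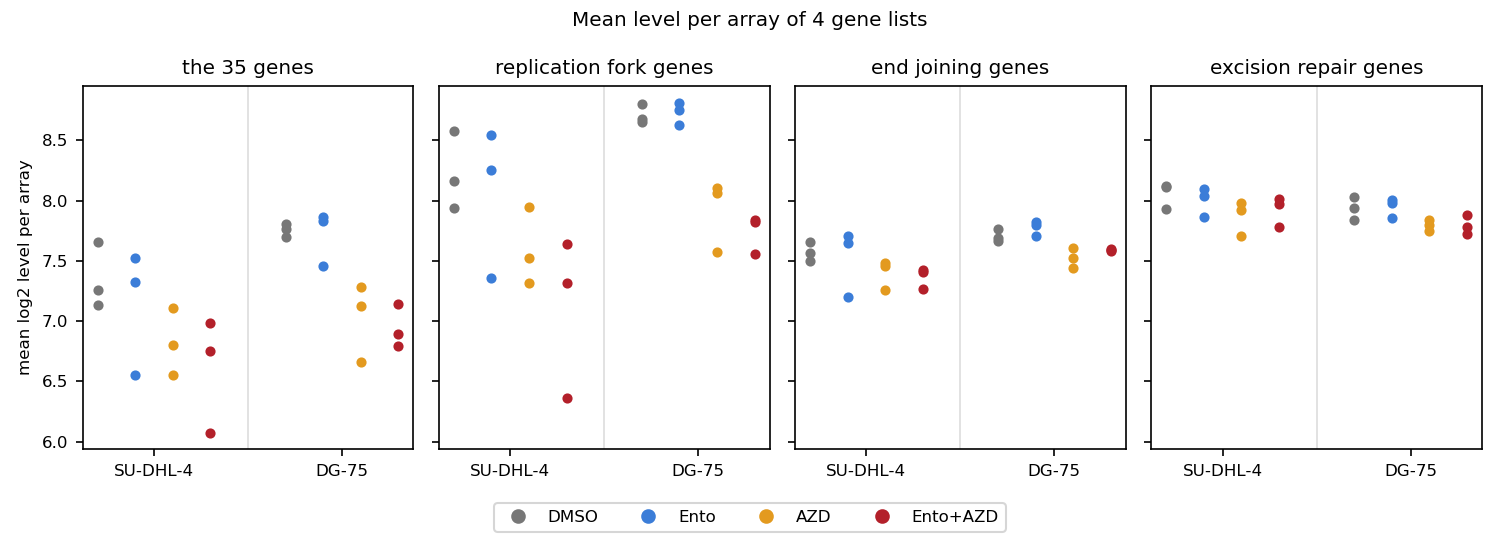
Mean log2 level per array (vertical axis) of the 35 genes and of 3 other lists, by line (horizontal axis) and treatment (colours), with 1 point per array. In each line every AZD and Ento+AZD array lies below every DMSO array for the 35 genes, as do the Ento+AZD arrays for the 21 replication fork genes, and SU-DHL-4 Ento+AZD replicate 2 is the lowest array for both, at 6.07 and 6.36.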

How the data were processed

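Total RNA of 24 cultures (2 lines, 4 treatments, 3 arrays per group) was hybridised to Clariom D arrays. The authors deposited log2 levels after RMA normalization with limma, mapped to genes with affycoretools and clariomhumantranscriptcluster.db; versions and genome build are not given in the sources used here. The number of arrays limits the precision.

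Each line was fitted alone in limma 3.58.1 (R 4.3.3; lmFit, contrasts.fit, eBayes) with treatment and replicate number, the latter in place of the study's batch, which the sources do not define. Fits over both lines and of line differences used all 24 arrays with replicate number within line, and the DMSO comparison of lines had no replicate term. Tests covered all 25575 rows, were adjusted by Benjamini-Hochberg, and a row was called where its adjusted p was under 0.05 and its log2 change beyond 1 in size. The fits were tested on simulated data. Values in every array are given for members called within a line or over both lines, and for the largest change under Ento+AZD in each role, with ATM in every array and FANCE and RAD51C in the DMSO arrays added after their values were seen; genes of other lists were to be named only where called, and not all called ones are named, and those passing without a fold minimum were added after their values were seen where a list had 5 or fewer. One gene each of the B-cell markers and of the excision repair list is not reported here and is left out of their summaries. Members and lists were chosen with earlier results of these data known. Alternatives were the replicate term, other fits, scalings, filters and thresholds, and leaving out each array. Promoter windows came from RefSeq (GRCh38.p14).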

Additional observations from a re-analysis of the deposited data

How the results depend on the processing

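The count of called members over both lines under Ento+AZD was 11; it ran from 8 to 15 with 1 array or replicate number left out, and rose to 17 by a treat test (fold 1.2) and 25 without a fold minimum. Counts within lines depended on single arrays. With 1 array or replicate number left out they ran from 0 to 14 (SU-DHL-4) and 0 to 13 (DG-75) for Ento+AZD, 0 to 8 for AZD in DG-75, 0 to 2 for AZD in SU-DHL-4, 0 to 19 (DG-75) and 0 to 2 (SU-DHL-4) for Ento+AZD over Ento, 0 to 9 for AZD over both lines, and 2 to 7 for the DMSO comparison. The fits with fewer arrays test as many rows. Quantile normalization gave 7 for Ento+AZD in SU-DHL-4, 7 in DG-75, 0 for AZD in DG-75 and 1 for AZD over both lines. Subtraction of array medians gave 7, 7 and 0 for the first 3 of these and 5 for Ento+AZD over Ento in DG-75. The treat test gave 3 for Ento+AZD in SU-DHL-4, 0 in DG-75, 0 for AZD and 0 for Ento+AZD over Ento in DG-75, and 2 for AZD over both lines. Without a fold minimum the counts were 13 for Ento+AZD over Ento in DG-75, 20 for AZD over both lines and 10 for the DMSO comparison. Fits of only the 2 treatments compared gave 0 for AZD and 0 for Ento+AZD over Ento in DG-75. A fit of all 24 arrays gave 1 for AZD and 3 for Ento+AZD over Ento in SU-DHL-4. A prior variance with trend gave 2 and 3 for these and 8 for AZD in DG-75, and omitting rows under the median expression gave 1, 2 and 7. The cause of these shifts was not tested. Counts of 0 for Ento, for Ento+AZD against AZD and for the line differences were 0 under all alternatives run.

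Without the replicate block the SU-DHL-4 count under Ento+AZD was 0 and the DG-75 count 12. Same-numbered arrays deviated together at r over 0.1 in 12 of 18 SU-DHL-4 pairs and 7 of 18 DG-75 pairs, and differently numbered arrays in 1 of 36 and 11 of 36. The median r of same-numbered and differently numbered pairs was 0.15 and -0.07 in SU-DHL-4 and 0.04 and -0.01 in DG-75. The reported fits include the replicate number. Not every same-numbered pair passed 0.1, so the data do not establish that it pairs the arrays, although in SU-DHL-4 same-numbered arrays deviated together more often. None of the 17 members followed singly (those called, or with the largest change of their role) changed sign under AZD or Ento+AZD in any alternative run. Signs of the other 18 were followed singly only for Ento+AZD over both lines with 1 array left out. There FANCE, ATR and PMS2 turned sign. Some members turned sign with the scaling, as the counts of negative members show. Calls within lines were followed for all 35 with 1 of the 6 compared arrays left out. This covered Ento+AZD in SU-DHL-4, and AZD, Ento+AZD and Ento+AZD over Ento in DG-75. The median change of the 35 under Ento in DG-75 ran from -0.19 to 0.11 with 1 array left out, and turned positive without DMSO replicate 1 (0.04) or Ento replicate 3 (0.11). Single-member alternatives for Ento were not run, since no member was called there. Subtracting array medians moved the median of all rows by 0.12 to 0.13 in the SU-DHL-4 comparisons with DMSO, by 0.11 over both lines under Ento+AZD and by 0.10 in the line difference under Ento. Relative to that scale 31 members, against 32, were negative under Ento+AZD over both lines, with a median of -0.72.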
